A study of Homo sapiens with 12 samples.

Results

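The open chromatin sites described here lie in TRAPPC9 and within 100 kb on each side of it, on the long arm of human chromosome 8 (GRCh38, chromosome 8:139627725–140558579, 930855 bp). TRAPPC9 itself spans chromosome 8:139727725–140458579, 730855 bp, and is read from the upper coordinate downwards. All peaks or entries of the 9 deposited ATAC-seq peak lists that touch this window were taken. They numbered 429, of which 297 counted as called, and merged into 117 sites out of 311447 in the genome. The locus was chosen by the −log10 p of its entries in the SOX2 and SOX2-FOXA2 CTD fusion lists, because the strongest region gained with each lies in it. The −log10 p values and the counts of gained and lost regions of those lists are therefore a description, with no test.

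ATAC-seq marks open chromatin by the insertion of adapters with the Tn5 transposase. It was done on 12 samples of U2OS, a human osteosarcoma cell line, in 6 groups of 2. The first 3 groups form the FOXA2 set: cells labelled wild type, cells with Tet-on FOXA2, and cells with Tet-on FOXA2dCTD, which lacks the CTD, taken here as the C-terminal domain. The other 3 form the SOX2 set: a wild type whose label also names the SOX2 cell line, cells with Tet-on SOX2, and cells with Tet-on SOX2FOXA2CTD, in which the FOXA2 CTD is joined to SOX2. All 4 constructs were placed in U2OS under a doxycycline-inducible promoter, and these cells received 500 ng/ml doxycycline for 4 days. The protocol text of both wild types mentions doxycycline while their treatment field is empty, so whether they received it is not known. Whether a construct line was 1 clone is not stated. Peaks of the FOXA2 set were deposited library by library. In the SOX2 set a group had a single list, made from 2 unnamed inputs that were taken to be its samples, so a gain there had no replicate check.

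TRAPPC9 is a subunit of the TRAPPII complex, which acts in vesicle traffic at the Golgi and activates Rab GTPases, and the protein is also known as NIBP for its part in NF-κB signalling. The gene is known from inherited forms of intellectual disability. One of its introns holds PEG13, a noncoding RNA transcribed from the paternal allele, and the neighbouring potassium channel gene KCNK9 belongs to the same imprinted domain. On the other side lie CHRAC1, a histone-fold subunit of a chromatin remodelling complex, and AGO2, the slicer protein of RNA interference. SOX2, an HMG-box factor of pluripotent and neural progenitor cells, and FOXA2, a forkhead factor of endoderm, both bind DNA in closed chromatin and are called pioneer factors.

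A called entry of the SOX2 set had a global irreproducible discovery rate (IDR) of at most 0.05, and one above this is called failing. All deposited peaks of the FOXA2 set counted as called. A region was gained in the SOX2 set if called with the construct and not in the wild type, and lost in the opposite case. In the FOXA2 set a gain needed both libraries of the construct and neither library labelled wild type. The −log10 p of an entry grows with the depth of its library, and depth is unknown, so it serves only to rank entries within a list. Fold enrichments of the FOXA2 set differed in level between libraries. Their median over all peaks was 5.16 and 5.93 in the libraries labelled wild type. It was 3.31 and 6.48 with full-length FOXA2 and 3.59 and 3.51 with the CTD deletion. Their sizes can thus not be compared between libraries. Percentiles are of −log10 p within a list. The lists differed in length, from 19862 to 161136 peaks in the FOXA2 set and from 48142 to 75544 called entries in the SOX2 set. The floors of the FOXA2 lists differed too. Their lowest −log10 p was 3.44 and 5.43 in the libraries labelled wild type. It was 2.01 and 5.22 with full-length FOXA2 and 2.01 in both CTD deletion libraries. A peak below 5.43 could thus be listed with a construct but not in wild type replicate 2. As a check of the cell line label, a called entry within 1 kb of a gene end was present in at least 6 of the 9 lists for RUNX2, VIM, COL1A1 and SPARC, in 2 for COL1A2 and in 0 for TWIST1. The same count was 0 for ALB, CDH1 and NEUROD1, 1 for EPCAM and 2 for PTPRC.

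The 43 regions of the SOX2 set in the locus, merged over its 3 lists, were called 28 times in the wild type (background 46.6% of all regions of the set), 32 times with SOX2 (63.6%) and 28 times with the fusion (73.1%). The 105 regions of the FOXA2 set were called 12 and 17 times in the libraries labelled wild type (6.97% and 8.82%), 51 and 26 times with full-length FOXA2 (56.8% and 20.6%) and 39 and 59 times with the CTD deletion (27.8% and 51.6%). In 7 of the 9 lists the called share of the regions was larger here than in the genome, the exceptions being the fusion and full-length replicate 1.

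Of the 117 merged sites, 14 were called in the SOX2 set alone, 74 in the FOXA2 set alone and 29 in both. The same split over all sites in the genome was not computed. A single list accounted for 70 sites, or 59.8%, against a background of 61.5% of all sites in the genome. Of these 70, 24 came from full-length FOXA2 replicate 1 and 24 from CTD deletion replicate 2, which were the longest lists. Sites called in all 9 lists numbered 8 (6.84%, beside a background of 2.08%). The outermost called site at the lower edge, chromosome 8:139630420–139631609 in KCNK9, was called in 7 lists. The nearest site outside that edge lay 932 bp beyond it and was called in 1 list. At the upper edge the last site inside was called in 1 list, as was the nearest outside, 11495 bp beyond.

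**Figure D1:**
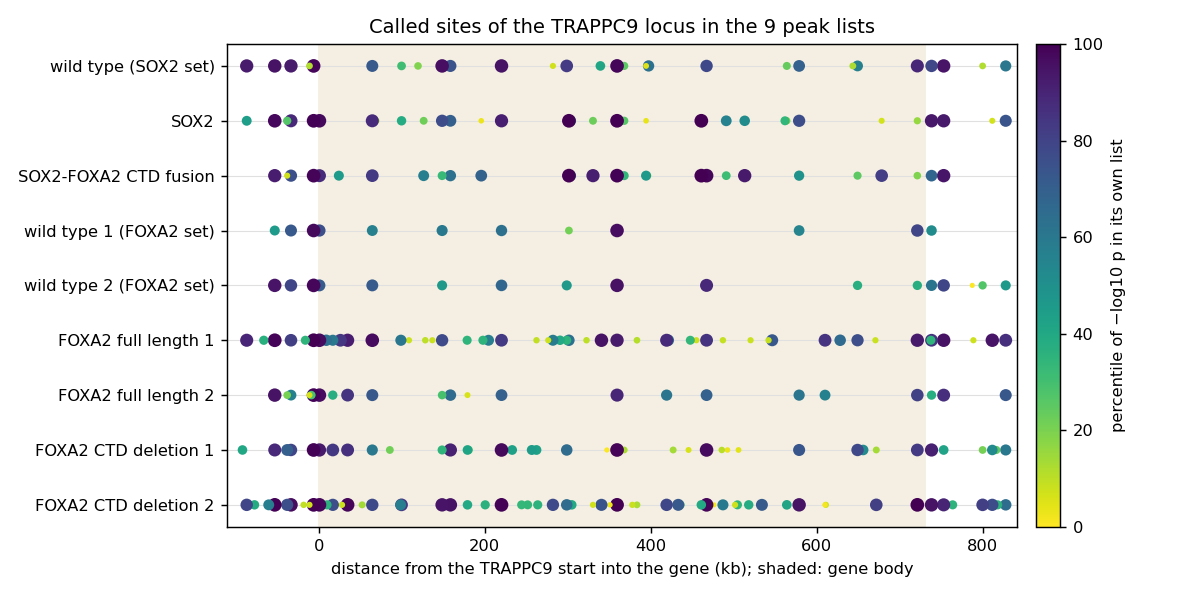
Called sites of the TRAPPC9 locus in each of the 9 lists, by distance in kb from the TRAPPC9 start (0, the gene running to the right, shaded). Colour and size give the percentile of −log10 p in the site's own list, and the sites near −6 and 359 kb stand high in all 9 lists.

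The first question was which sites of the locus were open with SOX2 or the fusion and not in their wild type. The strongest lay 460.9 kb into TRAPPC9, at chromosome 8:139996774–139998521. Both inputs of the SOX2 list were high there, with −log10 p of 88.5 and 92.8, and the entry ranked 10 among 65628 called entries and 1 among the 34868 regions gained with SOX2. The fusion inputs stood at 60.8 and 61.5, which ranked 11 of 75544 in that list and 1 of 44905 gained regions. In the wild type the same stretch held 2 failing entries, the first with inputs at 3.13 and 7.57 and the next with 3.13 and 3.61. Among the 6 libraries of the FOXA2 set, CTD deletion replicate 2 alone had a peak there, with a fold enrichment over its own background of 3.33. The site was thus not wholly absent from the wild-type list.

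The next strongest site, at chromosome 8:140156678–140157556, lay 301.5 kb into the gene. It had SOX2 inputs of 67.9 and 67.2 (rank 53 of the list, 4 among the gained regions) and fusion inputs of 64.4 and 49.6 (rank 24, and 3 among the gained). No wild-type entry of the SOX2 set lay there at any IDR. In the FOXA2 set the site had a peak in the library labelled wild type replicate 1, at a fold enrichment of 4.17, and in full-length replicate 1, at 3.42, and in none of the other 4. A weaker region gained with both constructs lay 1629 bp away at chromosome 8:140154457–140155048, with SOX2 inputs of 11.8 and 12.7 and fusion inputs of 11.6 and 9.68. On the opposite side, 2075 bp away, a region of 322 bp was called in the wild type at 23.1 and 24.1 and was lost with both constructs. Gained and lost regions therefore stood within a few kilobases of each other.

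The region over the TRAPPC9 start, chromosome 8:140456927–140458627, also counted as gained with both constructs, with SOX2 inputs of 47.8 and 40.1 and fusion inputs of 28.5 and 18.1. Its wild-type entry failed, with inputs at 35.7 and 2.75. That entry was 1750 bp wide and the SOX2 entry 1660 bp. All 6 libraries of the FOXA2 set had a peak at the start, with fold enrichments of 5.80 and 6.86 in those labelled wild type. They were 5.49 and 14.3 with full-length FOXA2 (97.2nd and 96.5th percentile) and 4.82 and 5.88 with the CTD deletion. One wild-type input of the SOX2 set and every library labelled wild type in the FOXA2 set were thus open at the gene start. This gain was lost when a single input of at least 10 was enough to count a list as open.

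In all, 15 of the 43 regions of the SOX2 set in the locus were gained with SOX2 or the fusion. Those gained with SOX2 numbered 14, or 32.6%, beside a background of 33.9% of all regions of the set. With the fusion 12 were gained, or 27.9%, beside 43.7%. Both constructs shared 11 (background 24.2%), 3 were gained with SOX2 alone (9.72%) and 1 with the fusion alone (19.5%). The share gained with SOX2 was near that of all regions. The strength of the gains varied widely: over the 11 shared regions the −log10 p ran from 6.48 to 88.5 with SOX2, with a median of 11.8, and from 5.91 to 60.8 with the fusion, with a median of 15.7.

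**Figure D2:**
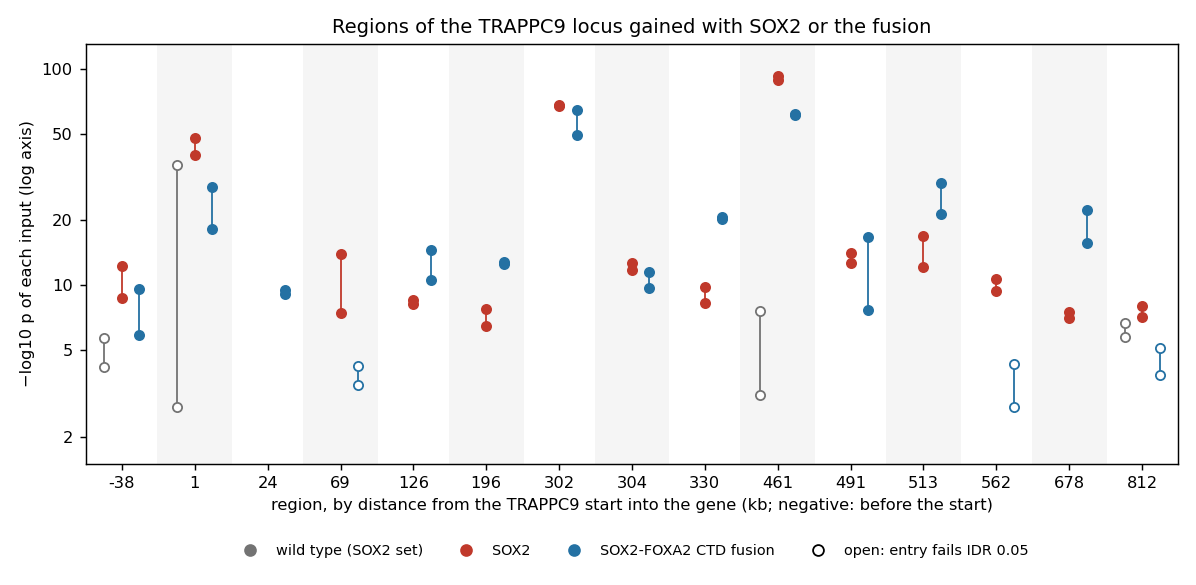
The −log10 p (log axis) of both inputs in the wild type, SOX2 and fusion lists for the 15 gained regions, ordered by distance from the TRAPPC9 start. Filled circles are called entries and open circles failing ones; the regions near 302 and 461 kb are the highest, and the wild-type inputs over the start (1 kb) stand at 35.7 and 2.75.

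Most other gains lay within TRAPPC9, whose exon positions were not used here. For 11 of the 15 gained regions the wild-type list held nothing whatever the IDR, and 9 of these also had no peak in any library of the FOXA2 set. The share of all gained regions that meets both conditions was not computed. A peak in at least 1 list of the FOXA2 set lay under 42.8% of all regions gained with SOX2. For all regions gained with the fusion it was 35.0%. A failing wild-type entry lay under 4 of the 14 regions gained with SOX2 (background 37.4%) and 3 of the 12 gained with the fusion (28.1%). Several gains ranked far higher in the fusion list than in the SOX2 list. At chromosome 8:139944985–139945815 the fusion inputs were 21.4 and 29.6, in the 93.3rd percentile of that list, and the SOX2 inputs 12.1 and 16.9, in the 51.9th. The region at chromosome 8:140127668–140128624 had 20.2 and 20.6 with the fusion (91.6th) beside 9.82 and 8.26 with SOX2 (22.3rd). For chromosome 8:139780097–139780741 the inputs were 15.7 and 22.3 (81.7th) beside 7.09 and 7.51 (6.70th). At chromosome 8:140262270–140263138 they were 12.5 and 12.7 (69.0th) beside 6.48 and 7.73 (2.92nd). The fusion percentile was the higher in 7 of the 11 shared regions. The 7 include the strongest site (99.99 in both lists) and that at 301.5 kb (99.97 with the fusion beside 99.92 with SOX2). SOX2 had the higher percentile at chromosome 8:139967205–139968048 (55.6th beside 31.3rd) and chromosome 8:140496144–140496665 (26.7th beside 7.05th). It was also higher over the TRAPPC9 start (97.5th beside 88.0th) and barely at chromosome 8:140154457–140155048 (50.31 beside 50.25). These percentiles come from lists of different lengths and show no change in accessibility by themselves.

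The regions gained with 1 construct alone were weak. Of the 3 gained with SOX2 alone the strongest was chromosome 8:139896650–139897144, with SOX2 inputs of 10.7 and 9.36 and fusion inputs of 2.75 and 4.32. Chromosome 8:140389359–140389687 had 13.9 and 7.46 beside 4.25 and 3.46, and chromosome 8:139646913–139647200 in KCNK9 had 7.09 and 8.02 beside 5.12 and 3.86. Each of the 3 thus had a failing entry in the fusion list, beside a background of 90.9% of all regions gained with SOX2 alone. The only one gained with the fusion alone, chromosome 8:140433947–140434480, 24.37 kb into the gene, had fusion inputs of 9.14 and 9.47 and no SOX2 or wild-type entry at any IDR. A failing SOX2 entry lay under 74.0% of all regions gained with the fusion alone. With 1 list a group, whether SOX2 and the fusion differ at the named sites could not be tested. At equal numbers of entries per list, where the locus had 41 regions, 3 were gained with SOX2 alone (8.99% of all regions) and 5 with the fusion alone (12.7%).

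Other sites were called in the wild type and not with a construct. Of the 43 regions 10 were lost with SOX2, or 23.3% (background 17.0%), and 12 with the fusion, or 27.9% (background 17.1%). These comprised 7 lost with both, or 16.3% (background 12.2%), 3 with SOX2 alone and 5 with the fusion alone. For the losses with SOX2 alone or the fusion alone, the share over all regions was not computed. The strongest wild-type entry among the 7 was the 322 bp region beside the gained site at 301.5 kb, in the 82.8th percentile of its list; its inputs were 7.02 and 5.30 with SOX2 and 3.76 and 5.69 with the fusion. The next in rank, chromosome 8:140118721–140119701, had wild-type inputs of 10.9 and 15.5 beside 3.16 and 4.90 with SOX2 and 2.64 and 4.96 with the fusion. At chromosome 8:140338561–140339187 the wild type had 8.27 and 10.3, and at chromosome 8:139814723–139815585 it had 7.53 and 11.1; neither had an entry with a construct. The region in KCNK9 at chromosome 8:139658765–139659031 had 7.41 and 10.6 beside 5.93 and 9.03 with SOX2 and 3.38 and 5.31 with the fusion, so its values lay close together. The median percentile of the 7 was 12.9, so most were weak entries. Only 2 of the 10 regions lost with SOX2 and 2 of the 12 lost with the fusion had no entry at all in the construct's list. A failing entry was thus present in 8 of 10 and 10 of 12, beside backgrounds of 65.8% and 75.0%. At equal numbers of entries 14 were lost with SOX2 (27.4% of all regions) and 17 with the fusion (31.1%).

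Several losses rested on a single input. At chromosome 8:139990722–139991926, 4847 bp from the strongest gained site, the wild type stood at 21.8 and 20.8 and the fusion at 31.1 and 30.2, while the SOX2 inputs were 47.0 and 2.22. At chromosome 8:140237508–140239092 the wild type had 35.5 and 40.3 and SOX2 41.7 and 29.3, while the fusion inputs were 2.79 and 24.1; this region had a peak in all 6 libraries of the FOXA2 set. The region in AGO2 at chromosome 8:140544799–140545618 had fusion inputs of 2.53 and 10.6 beside 31.4 and 32.3 in the wild type. In KCNK9, at chromosome 8:139630420–139631609, the fusion inputs were 2.33 and 13.4 beside 14.8 and 17.3. In these 4 regions the construct's higher input was at least 10 and its lower one below 4; what set the inputs apart was not tested. Entries with 1 input of at least 10 and the other below 4 made up 1 of 69 wild-type, 2 of 75 SOX2 and 3 of 77 fusion entries in the locus, beside 1.88%, 1.13% and 1.29% of all entries. When any input of at least 10 was enough to count a list as open, whatever the other input, 9 regions were lost with SOX2 and 8 with the fusion.

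**Figure D3:**
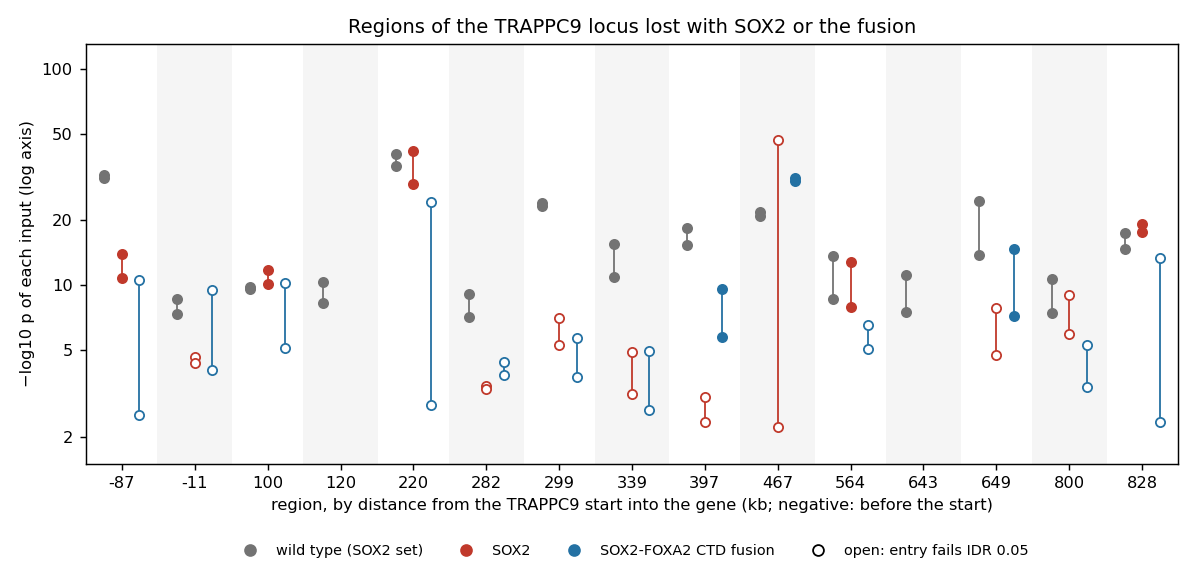
The −log10 p (log axis) of both inputs in the 3 lists for the 15 regions lost with SOX2, the fusion or both. The wild-type inputs are filled in every column, and the open circles at 220, 467, 828 and −87 kb span a high and a low input of the construct.

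The strongest sites called in all 9 lists lay at ends of genes. The highest mean percentile, 99.1, belonged to chromosome 8:140463852–140465367, which lies before the TRAPPC9 start and over an end of the noncoding gene LOC105375782. Its fold enrichment was 7.11 and 15.3 in the libraries labelled wild type, 7.23 and 20.8 with full-length FOXA2, and 6.57 and 8.09 with the CTD deletion. In the SOX2 set its inputs were 46.5 and 52.5 in the wild type, 56.9 and 55.0 with SOX2 and 42.0 and 32.6 with the fusion. The next, with a mean percentile of 96.8, lay in PEG13 at chromosome 8:140098450–140099850. Fold enrichments there were 7.50 and 11.2, 4.62 and 10.9, and 6.60 and 7.97 in the same order, and the inputs were 46.1 and 53.2 in the wild type, 62.9 and 64.6 with SOX2 and 36.2 and 42.2 with the fusion. These 2 sites and the 2 strongest gained sites were the 4 entries of the locus in the top 1% of the SOX2 list, and the same 4 were its entries in the top 1% of the fusion list.

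The site over the start of CHRAC1, chromosome 8:140510383–140512474, had a mean percentile of 89.7, with inputs of 35.3 and 39.6 in the wild type, 45.2 and 41.3 with SOX2 and 20.7 and 23.7 with the fusion. Next came chromosome 8:140491226–140492556, before the TRAPPC9 start, with a mean percentile of 80.5, and chromosome 8:140393570–140394322 inside the gene with 75.6. The other 3 sites called in all 9 lists had mean percentiles from 60.9 to 73.4. Another 3 sites were called in 8 lists: the TRAPPC9 start, the region at 220.3 kb that failed in the fusion list, and chromosome 8:139705093–139706434 between KCNK9 and TRAPPC9, which wild type replicate 1 of the FOXA2 set lacked. One site called in all 9 lists, chromosome 8:139736865–139738100, had wild-type inputs of 27.9 and 30.1 (89.4th percentile) beside 7.74 and 7.72 with SOX2 and 6.87 and 13.4 with the fusion (19.4th). It passed the IDR threshold with both constructs and so does not count as lost.

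The FOXA2 set asked which sites opened with FOXA2 and with its CTD deletion, whose lists the choice of the locus did not use. Of the 105 regions of that set in the locus, 4 were gained with full-length FOXA2, or 3.81% (background 9.06%), and 7 with the CTD deletion, or 6.67% (background 8.72%). None was lost with either, beside backgrounds of 0.155% and 0.0576%. Both constructs shared 2 of these gains, a share that was not computed over all regions. The stronger lay 34.90 kb into TRAPPC9 at chromosome 8:140423263–140424105, with fold enrichments of 5.04 and 9.89 with full-length FOXA2 and 4.94 and 7.81 with the CTD deletion. The other, chromosome 8:140441208–140441837, had 3.39 and 5.80 (59.8th and 37.2nd percentile) and then 4.40 and 4.17 (83.8th and 76.3rd). Both were called in 4 of 4 construct libraries and 0 of 2 labelled wild type, and neither had a SOX2-set entry at any IDR.

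The regions gained with full-length FOXA2 alone, at chromosome 8:139848211–139849064 and chromosome 8:140038895–140039987, had fold enrichments of 4.29 and 6.82 and of 4.36 and 7.16. Both also had a peak in CTD deletion replicate 2, at 2.24 and 4.08, so they were not absent from the other construct. Of the 5 gained with the CTD deletion and not by the rule with full-length FOXA2, the strongest was chromosome 8:140299441–140300248. It had 4.64 and 5.93 (90.7th and 95.3rd percentile of their lists) and a full-length peak in replicate 2 of 7.50 (65.6th). This region was called in all 3 lists of the SOX2 set, its wild type included. Another 2 overlapped regions gained with SOX2: chromosome 8:139647034–139647458 in KCNK9, at 3.15 and 3.76, and chromosome 8:140496233–140496758 before the TRAPPC9 start, at 3.66 and 3.99. Both of these SOX2-set regions had failing wild-type entries. None of the 5 was called in both full-length libraries, and 1, chromosome 8:139786506–139787321, was called in neither.

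Leaving out a library removes a condition from the rule for a gain, so these counts could only stay the same or rise. Without full-length replicate 2 the regions gained with full-length FOXA2 numbered 35 (48.3% of all regions of the set at that setting), without full-length replicate 1 they were 12 (12.4%), and without wild type replicate 2 they were 7 (11.8%). For the CTD deletion they were 43 without its replicate 1 (42.4% of all regions), 22 without its replicate 2 (19.5%) and 12 without wild type replicate 2 (11.4%). The shares over all regions were higher in each of these settings too. The lists also differed in their mitochondrial peaks, of which wild type and full-length replicate 2 listed 0 and the other 4 lists 2 each. Between the lists without them, 13 regions of the locus were called with full-length FOXA2 and not in wild type (background 13.6%) and 4 the opposite way (1.84%). Between the lists with them, 40 were gained with full-length FOXA2 in its 1 library (background 51.4%) and 12 in both CTD deletion libraries (background 11.4%), with 1 lost in each case (1.55% and 0.752%). An exact two-sided permutation test of 2 libraries against 2 cannot give a p below 0.333, so none was run.

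The regions of the SOX2 set were then set beside the FOXA2 libraries. Of the 14 gained with SOX2, 6 had a peak in at least 1 library of the FOXA2 set, beside a background of 42.8%, and 2 had one in a library labelled wild type (background 8.61%). A peak in both full-length libraries was found for 1 (12.6%), and in both CTD deletion libraries for 3, beside 4889 of all 34868 regions gained with SOX2. For the 7 lost with both constructs, 4 had a peak in the FOXA2 set (background 59.4%). For the 13 called in all 3 lists it was 12 (background 93.8%), and 10 had one in a library labelled wild type (background 57.3%). Whether these shares differ from those in the genome was not tested.

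**Figure D4:**
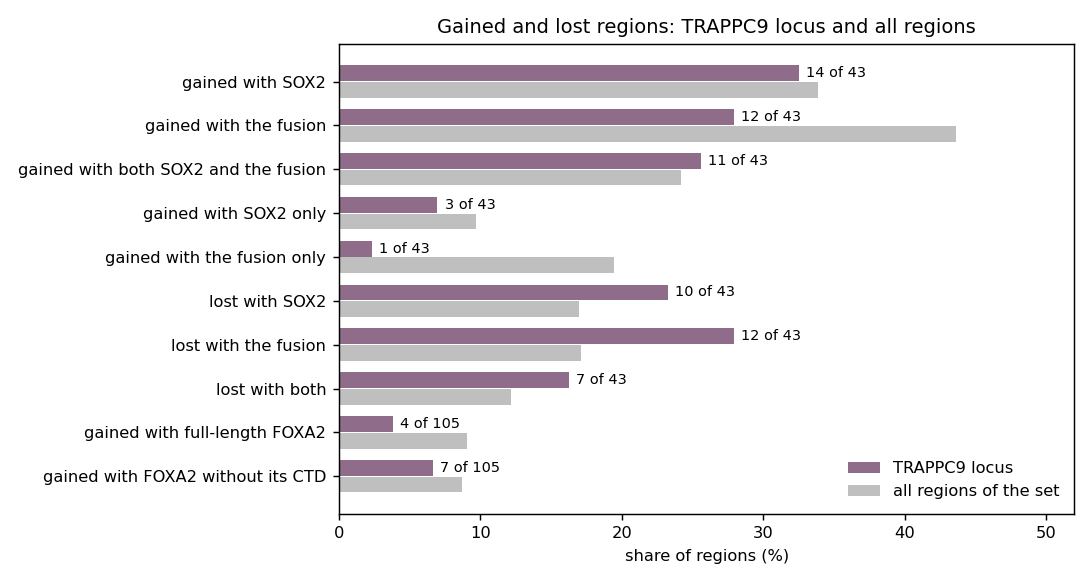
Share of regions (%) gained or lost in the TRAPPC9 locus (coloured bars, with counts) and among all regions of the same set (grey bars). SOX2 gains make up 32.6% against 33.9%, and fusion gains 27.9% against 43.7%.

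Along the gene the gains were spread out. Cut into 3 equal stretches from its start, TRAPPC9 held in each 4 regions gained with SOX2, out of 11, 12 and 9 regions of the SOX2 set. The 100 kb before the start held 1 of 6, and the 100 kb beyond the gene 1 of 5. Regions called in all 3 lists of the SOX2 set were wider than gained ones, with a median of 1236 bp against 753 bp. Each width is that of entries merged over the lists that called the region, so the classes are not alike by construction. A region of the gained class had a neighbour of the SOX2 set within 10 kb in 9 of 15 cases. The same share was not computed for other regions, so the count does not show that gains lie close together.

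For scale, the locus was set beside 3134 consecutive windows of its length that held any region. It had 14 regions gained with SOX2, where the median window had 11 and 69.5% had fewer, and 12 gained with the fusion, where the median was 14 and 35.9% had fewer. It held 10 regions lost with SOX2 and 12 lost with the fusion, where 86.3% and 93.3% of windows had fewer. With full-length FOXA2 4 were gained, where the median was 8 and 16.7% had fewer. In wild type of the SOX2 set 28 entries were called, where 91.3% of windows had fewer.

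Long genes gave a similar picture. Among 574 protein-coding genes of at least 365428 bp, TRAPPC9 ranked 114 by regions gained with both SOX2 constructs, at 1.37 per 100 kb of gene body beside a median of 0.897. By all regions of the SOX2 set it ranked 130, at 4.38 per 100 kb beside a median of 3.39. The 5 genes with the most were MAML2, a coactivator of Notch signalling, at 3.27, SLC44A5 at 2.87, the cadherin gene FAT3 at 2.83, PDZRN4 at 2.59 and LDLRAD4 at 2.53. TRAPPC9 was thus above the median of long genes and below the genes richest in shared gains.

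**Figure D5:**
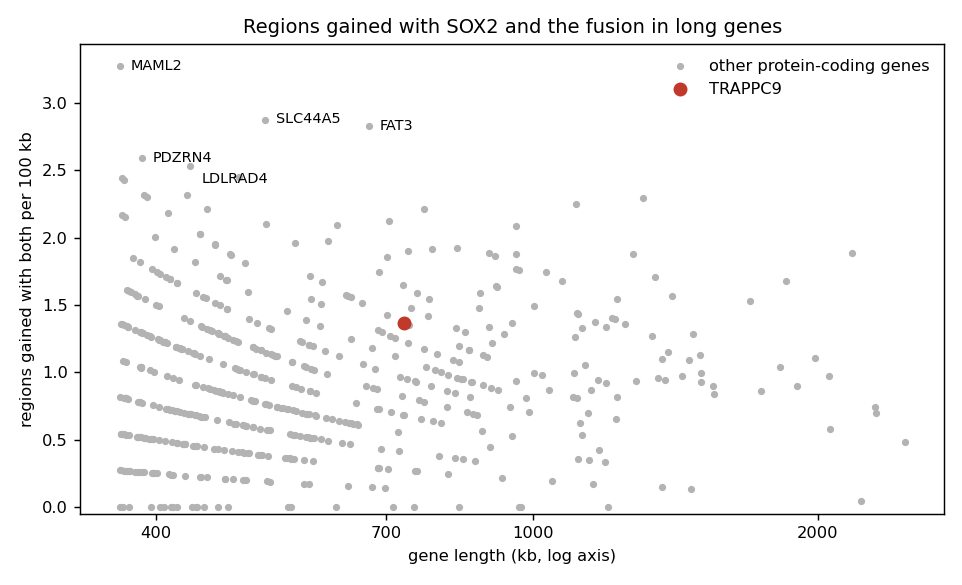
Regions gained with both SOX2 and the fusion per 100 kb of gene body against gene length (kb, log axis) for 574 long protein-coding genes. TRAPPC9 (red, 1.37) lies above the median of 0.897 and below the 5 named genes.

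The other 13 genes for TRAPP subunits are short and held 18 regions of the SOX2 set in their bodies. Of these 2 were gained with SOX2 (background 33.9% of all regions), 1 each in TRAPPC6A and TRAPPC13, and both were gained with the fusion as well. The fusion had 3 more, in TRAPPC5, TRAPPC11 and TRAPPC12, which made 5 of the 18 (background 43.7%). TRAPPC10, which like TRAPPC9 belongs to the TRAPPII form of the complex, had 1 region and no gain. A called entry within 1 kb of a gene end was found in all 9 lists for TRAPPC4, TRAPPC8 and TRAPPC13, and in 8 lists for TRAPPC9. The share over all genes was not computed. Among the neighbours, PTK2, the focal adhesion kinase gene, held 17 regions with 8 gained with SOX2 and 9 with the fusion, AGO2 held 9 with 0 and 2, KCNK9 held 5 with 1 and 0, and the single regions of PEG13 and CHRAC1 were not gained.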

How the data were processed

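The deposited lists were used as they stand. Per the submitters' processing notes, FastQC 0.10.1, Trim Galore, Bowtie2 2.4.4, SAMtools 0.1.18, MACS2 and deepTools 2.4.1 were used with hg38; filters and any control are not given in the sources used here. For the FOXA2 set the authors deposited a fold enrichment ratio, a −log10 p and −log10 q, and a score that restates one of these. For the SOX2 set the authors deposited the −log10 p of 2 inputs and of the entry, which is the lower of them, and a score that restates the IDR.

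Peaks on chromosomes 1–22 and X were merged per set with Python 3.11.15 and pandas 2.3.3, and a region was called in a list if a peak overlapped it by at least 1 bp. The merging and calling were tested on simulated lists. Gene positions come from RefSeq (GRCh38.p14). Named sites are the up to 5 strongest of each class by percentile, all gains in the top 1% of a list, and sites over gene ends; regions lost with 1 construct, and weaker gains beside these, were chosen after their values were seen. The 5 named long genes are those with the most shared gains per 100 kb. The locus, its classes and the gene lists were chosen with earlier results of these data known. Samples are replicates by label only. Read depth is unknown, so no interval is given. No sequence is printed, since no genome was used here. Alternatives were other IDR thresholds, equal numbers, 50% cover, gene body only and single libraries left out.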

Additional observations from a re-analysis of the deposited data

How the results depend on the processing

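Of 65 recomputed counts, 39 stayed within 1.5 times the reported value and 26 did not. These are raw counts, and some settings change the number of regions in the locus. Leaving out a library can only keep or raise a count. What else moved the counts was not tested. No paired analysis was possible because no result comes from a test. With all entries whatever their IDR, where the locus has 115 regions, 34 were gained with SOX2 (31.9% of all regions at that setting, as for the percentages that follow), 34 with the fusion (43.3%), 20 with both (23.6%), 14 with SOX2 only (8.28%) and 14 with the fusion only (19.7%), and 28 and 25 were lost with SOX2 and the fusion (15.6% and 14.1%). At an IDR of at most 0.01, with 35 regions, 6 were gained with both (24.2%), 5 with the fusion only (16.9%), and 6 were lost with SOX2 (16.4%). With no entry at any IDR needed for a region to be shut, 0 were gained with SOX2 only (0.562%), and 2 and 2 were lost (5.80% and 4.28%); 10 of the 14 SOX2 gains and 9 of the 12 fusion gains stayed, and the strongest site and the TRAPPC9 start did not. At equal numbers of entries, with 41 regions, 8 were gained with SOX2 (27.5%), 5 with both (18.5%) and 5 with the fusion only (12.7%). The regions 301.5, 303.8 and 513.2 kb into the gene stayed gained with both constructs at all of these settings. Counting a list with a strong single input as open was chosen after seeing the data. For full-length FOXA2, equal numbers of peaks gave 1 gained region (7.52%), 50% cover gave 2 (6.39%), and leaving out 1 library gave from 4 to 35. For the CTD deletion, a common −log10 p of at least 5.43 gave 4 (7.63%), equal numbers gave 2 (5.74%), and leaving out 1 library gave from 8 to 43.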
